A study of Mus musculus with 6 samples.

Results

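The 10 genes described here encode enzymes and receptors that make and sense the prostaglandins and leukotrienes, out of 24454 gene symbols in the count table. They were chosen by name: the cyclooxygenases Ptgs1 and Ptgs2, the prostaglandin E synthase Ptges, the thromboxane synthase Tbxas1, the prostaglandin E2 receptors Ptger2 and Ptger4, the lipoxygenases Alox5 and Alox15, the Alox5-activating protein Alox5ap and the leukotriene C4 synthase Ltc4s. All 10 were found, and 7 of them had enough reads to be tested. PolyA-enriched RNA was sequenced from macrophages of the peritoneum, phagocytes that live in the abdominal cavity, held in culture and taken from wild-type male C57BL6/J mice aged 6 to 8 weeks. There were 6 libraries in 3 groups of 2. The vehicle group was kept for 5 h. The LPS group received the bacterial endotoxin LPS at 10 ng/ml for 4 h. The SGA360+LPS group received SGA360, which binds the aryl hydrocarbon receptor (AHR), at 10 µM for 1 h and then LPS at 10 ng/ml for 4 h. The labels name no solvent pretreatment for the LPS group, so a part of the solvent or of handling in the comparison of SGA360+LPS with LPS cannot be told apart from that of SGA360. Nor do they tell if the 2 libraries of each group are from different mice or dishes, so the p-values cover the spread of these samples alone, and it may be technical.

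Prostaglandins and leukotrienes are short-lived lipid signals cut from arachidonic acid, which phospholipases free from membranes. Cyclooxygenases turn it into prostaglandin H2, which terminal synthases convert to prostaglandin E2, thromboxane A2, prostacyclin or prostaglandin D2, while 5-lipoxygenase and its activating protein start the leukotrienes. In macrophages Ptgs1 is known as the standing isoenzyme and Ptgs2 as the one induced by inflammatory signals. Prostaglandin E2 acts back on macrophages through the receptors EP2 (Ptger2) and EP4 (Ptger4), which raise cyclic AMP.

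The bases around the start of 4 genes are shown because these genes moved most clearly at high levels: Ptgs2 and Ptges rose with LPS, while Ptgs1 and Tbxas1 fell. Each run holds 250 bases before and 30 bases after the RefSeq start, 5′ to 3′ on the strand of the gene, in the GRCm38.p6 assembly, at chr1:150099781-150100060 (Ptgs2, plus strand), chr2:30903268-30903547 (Ptges, minus strand), chr2:36230176-36230455 (Ptgs1, plus strand) and chr6:38918736-38919015 (Tbxas1, plus strand). Capitals mark matches to any of the motifs searched. The GENCODE annotation puts the 5′ end of Ptges (30929863) and of Tbxas1 (38875404) upstream of these windows, so other starts of these genes were not searched.
Ptgs2: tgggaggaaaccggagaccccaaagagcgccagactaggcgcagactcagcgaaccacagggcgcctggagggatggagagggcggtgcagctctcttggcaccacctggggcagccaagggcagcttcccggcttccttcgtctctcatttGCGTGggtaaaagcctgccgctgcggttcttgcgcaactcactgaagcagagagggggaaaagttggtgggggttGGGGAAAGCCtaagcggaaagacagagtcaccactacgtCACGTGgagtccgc
Ptges: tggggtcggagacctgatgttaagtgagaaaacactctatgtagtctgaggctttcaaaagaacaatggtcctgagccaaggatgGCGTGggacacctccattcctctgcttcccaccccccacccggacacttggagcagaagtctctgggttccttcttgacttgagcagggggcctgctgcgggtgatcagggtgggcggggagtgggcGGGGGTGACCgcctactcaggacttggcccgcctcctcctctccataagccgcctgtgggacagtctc
Ptgs1: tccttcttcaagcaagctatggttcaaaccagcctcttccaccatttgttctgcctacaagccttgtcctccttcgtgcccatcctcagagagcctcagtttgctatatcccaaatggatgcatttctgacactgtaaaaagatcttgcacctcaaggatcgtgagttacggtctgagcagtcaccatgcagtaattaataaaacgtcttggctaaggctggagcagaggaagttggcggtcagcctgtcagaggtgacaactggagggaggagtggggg
Tbxas1: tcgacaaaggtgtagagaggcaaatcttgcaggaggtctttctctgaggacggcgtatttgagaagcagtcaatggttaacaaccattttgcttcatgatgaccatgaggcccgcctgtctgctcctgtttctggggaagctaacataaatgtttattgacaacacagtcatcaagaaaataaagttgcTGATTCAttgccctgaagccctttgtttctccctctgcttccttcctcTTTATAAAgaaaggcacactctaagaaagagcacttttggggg
The motifs, searched on both strands, were NF-kB (GGG and CC with any 5 bases between them), the AHR core (GCGTG), the cyclic AMP response element (CRE, TGACGTCA), AP-1 (TGANTCA), the E-box (CACGTG) and the TATA box (TATAAA). The Ptgs2 window held an NF-kB match starting 23 bases before the start, an AHR core match 98 bases before it and an E-box match from base 17 of the transcript. The Ptges window also held an NF-kB match, 38 bases before the start, and an AHR core match, 165 bases before it. Among all 32851 windows of this length 48.9% held an NF-kB match, 30.8% an AHR core match and 6.79% an E-box match, so matches to the first pair of motifs are common. The Tbxas1 window held an AP-1 match 61 bases before the start (7.46% of windows) and overlapping TATA matches on both strands, 13 and 11 bases before it (13.1% of windows). The Ptgs1 window held none of the 6 motifs, which says only that these letters are not in these bases. CRE letters were in 1.74% of windows and in none of the 4 shown. RefSeq promoters were matched for 8 of the 10 genes; Alox5ap and Alox15 had no entry.

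Total counts per library ran from 7726973 to 9529817. Vehicle replicate 1 stood apart, with 10001 genes holding a count against 12282 to 12643 in the other 5 libraries, and 4.92% of its counts on the ribosomal RNA gene Rn45s against 0.22% to 0.684%. The level of a gene is its CPM, its read count per standard unit of TMM-adjusted library size, and genes are compared with each other in CPM per kilobase of exon. Macrophage markers were abundant: Lyz2 was at a mean of 19763 CPM in vehicle and Csf1r at 762 CPM, and 7 of 8 listed markers had counts; Itgam, which has 2 transcript rows, was at 0. Of 7 eosinophil markers 6 are in the table, with a summed level of 0.447 to 3.05 CPM over the libraries. Of these 3, Epx, Siglecf and Ear6, were at 0, and Siglecf has 2 transcript rows.

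Ptgs2, the inducible cyclooxygenase COX-2, stood at 6.26 and 5.62 CPM in the vehicle libraries, at 253 and 264 CPM after LPS, and at 136 and 128 CPM in SGA360+LPS. The 3 groups did not overlap, and both SGA360+LPS libraries lay between the vehicle and LPS libraries. The rise with LPS was 43.5-fold (log2 fold change 5.44, SE 0.11; adjusted p = 4.38e-10 by edgeR's quasi-likelihood test with Benjamini-Hochberg adjustment over all 9389 genes tested). Its count was 56 and 54 in vehicle against 1902 and 2418 with LPS.

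Ptges, the inducible synthase that makes prostaglandin E2 from the cyclooxygenase product, was at 13.6 and 14.7 CPM in vehicle, 822 and 884 CPM after LPS, and 773 and 821 CPM in SGA360+LPS. Vehicle was far below both treated groups; the higher SGA360+LPS library came close to the lower LPS library without reaching it. With LPS it rose 60.2-fold (log2 fold change 5.91, SE 0.09; adjusted p = 6.97e-11, edgeR). Ptges and Ptgs2 ranked 43 and 54 from the top by fold change among the genes tested.

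Ptgs1, the standing cyclooxygenase COX-1, was at 266 and 263 CPM in vehicle, 153 and 150.4 CPM after LPS, and 138 and 150.4 CPM in SGA360+LPS. Both treated groups lay below vehicle and overlapped each other. With LPS it fell by 0.80 on the log2 scale (SE 0.07; adjusted p = 1.44e-05, edgeR). The COX-1 and COX-2 genes went opposite ways under LPS.

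Tbxas1, which makes thromboxane A2 from the same precursor as Ptges uses, was at 276 and 261 CPM in vehicle, 103 and 114 CPM after LPS, and 118 and 122 CPM in SGA360+LPS. Every treated library lay below both vehicle libraries, and SGA360+LPS lay just above LPS. With LPS it fell by 1.30 on the log2 scale (SE 0.08; adjusted p = 7.32e-07, edgeR).

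Ptger2, the EP2 receptor gene, was at 14.1 and 18.1 CPM in vehicle, 8.51 and 8.53 CPM after LPS, and 10.8 and 12.2 CPM in SGA360+LPS. Its groups did not overlap, with SGA360+LPS between the others. With LPS it fell by 0.92 (SE 0.21; adjusted p = 0.00657, edgeR) on the log2 scale, a call lost without LPS replicate 1 (adjusted p = 0.0552) or LPS replicate 2 (adjusted p = 0.06). Its counts were only 64 to 174 per library.

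Alox5, the 5-lipoxygenase that starts leukotriene synthesis, was at 26.5 and 15.8 CPM in vehicle, 5.72 and 5.47 CPM after LPS, and 5.21 and 5.04 CPM in SGA360+LPS. The vehicle libraries differed from each other more than the treated libraries did, yet both lay above all of them. With LPS it fell by 1.92 on the log2 scale (SE 0.28; adjusted p = 0.000386, edgeR). The log2 fold change was −1.48 without vehicle replicate 1, the library that stood apart and held the higher value, and −2.23 without vehicle replicate 2, with the call kept in both cases.

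Alox15, the 12/15-lipoxygenase known from resident peritoneal macrophages, was at 7.71 and 7.08 CPM in vehicle, 7.58 and 7.54 CPM after LPS, and 6.6 and 4.59 CPM in SGA360+LPS. Its vehicle and LPS values overlapped. The log2 fold change with LPS was 0.03, with a 95% interval from −0.58 to 0.65 (adjusted p = 0.937, edgeR), and changes within that interval in either direction were not detectable at counts of 41 to 69 per library.

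**Figure D1:**
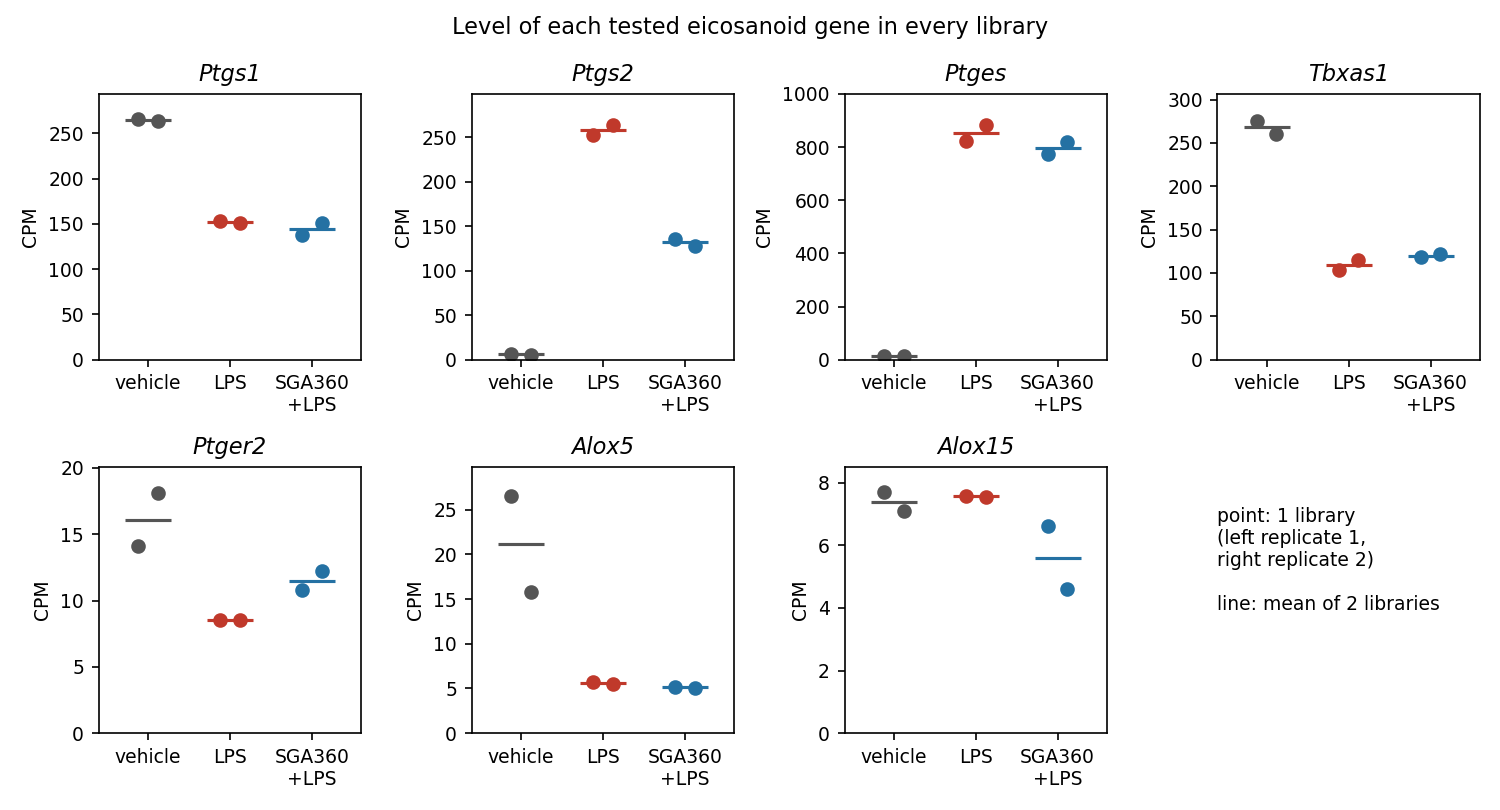
CPM (vertical axes, each from 0) of the 7 tested genes in the vehicle, LPS and SGA360+LPS groups; points are single libraries and lines the mean of 2. Ptgs2 and Ptges are near 0 in vehicle and high after LPS, Ptgs1, Tbxas1, Ptger2 and Alox5 are lower after LPS, and Ptgs2 is at 136 and 128 CPM with SGA360+LPS against 253 and 264 CPM with LPS.

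Of the 7 tested genes, 2 rose, 4 fell and 1 had no call with LPS, where 19.4% of all genes tested rose and 17% fell (36.4% called in either direction). The groups were separated for 6 of the 7, against 65.9% of all genes tested. In these bulk samples fewer cells of a type and less RNA per cell cannot be told apart. Over the same libraries the summed level of the 9 mesothelial markers in the table went from 491 to 517 CPM in vehicle to 352 to 354 CPM with LPS and 346 to 365 CPM with SGA360+LPS. Of these markers 8 had counts, and Gpm6a, which has 3 transcript rows, was at 0. With LPS 3 of the 8 tested fell on the log2 scale, Upk3b (−0.47), Upk1b (−0.66) and Lrrn4 (−1.04). Lrrn4 went from a mean of 167 CPM in vehicle to 81.2 CPM with LPS, a large part of the fall in the sum. The others had no call, among them Wt1 (−0.09) and Krt19 (−0.09). The part of mesothelial cells in the falls of Ptgs1, Tbxas1, Ptger2 and Alox5 was not tested. Itga2b, a platelet integrin gene, was at 4.02 and 4.99 CPM in vehicle and 1.6 and 2.08 CPM after LPS and also fell (−1.28, SE 0.44; adjusted p = 0.0438, edgeR); platelets are a known source of Ptgs1 and Tbxas1, and their part was not tested. Of the 7 macrophage markers tested, Csf1r (−0.34), Fcgr1 (−2.39) and Mertk (−2.14) fell with LPS on the log2 scale. Adgre1 (1.30) and Cd14 (2.98) rose. Of 8 tested markers of large peritoneal macrophages, Timd4 (1.29), Prg4 (0.54) and F10 (1.64) rose, 1, Gata6, fell (−0.48) and the others had no call. The summed level of that list was 805 to 907 CPM in vehicle and 805 to 808 CPM with LPS. Most of this sum was 1 gene, Cd9, at 716 and 602 CPM in vehicle and 632 and 634 CPM with LPS. The sum therefore mainly follows Cd9 and says little of the other genes in the list. The part of these macrophages was not tested either. Mast cells, which can also hold Alox5 and Ptgs1, were represented by 7 of 9 markers with counts (Kit and Ms4a2 at 0, both with several transcript rows). Their summed level was 77.3 to 86.3 CPM in vehicle, 101 CPM in both LPS libraries and 84.4 to 94.7 CPM with SGA360+LPS. Of the 6 mast cell markers tested, Hdc (1.99) and Fcer1a (2.35) rose with LPS on the log2 scale and none fell. Fcer1a held only 2 and 4 counts in the vehicle libraries. The others, Cpa3 (0.16), Mcpt4 (0.09), Cma1 (0.09) and Tpsb2 (0.19), had no call. The part of mast cells in these results was not tested.

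Ptger4, Ltc4s and Alox5ap could not be assessed. Ptger4, the EP4 receptor gene, and Ltc4s, whose enzyme joins glutathione to leukotriene A4, had 0 counts in all 6 libraries. Alox5ap had 1 count in each LPS library and 0 elsewhere. By counting error alone a count of 0 allows up to 3 counts, or 0.312 to 0.399 CPM depending on the library. Each of these 3 genes has 2 or more transcript rows at the same position (Ptger4 2, Alox5ap 2, Ltc4s 4), whereas each of the 7 tested genes has 1. Over the whole table, 5639 symbols with several rows held 1.87% of all counts. No statement on the expression of these 3 genes is therefore made.

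In the mm10 build (rows of the deposited table, start made 1-based), Ptgs2 (NM_011198) lies on chromosome 1 between 150100031 and 150108234 (plus strand, 10 exons). Chromosome 2 holds Ptges (NM_022415) between 30889471 and 30903297 (minus strand, 3 exons) and Ptgs1 (NM_008969) between 36230426 and 36252271 (plus strand, 11 exons). Chromosome 6 holds Tbxas1 (NM_011539) between 38918986 and 39084579 (plus strand, 13 exons) and Alox5 (NM_009662) between 116410071 and 116461178 (minus strand, 14 exons). Ptger2 (NM_008964) lies on chromosome 14 from 44988111 to 45003820 (plus strand) and Alox15 (NM_009660) on chromosome 11 from 70344147 to 70352031 (minus strand). GENCODE lists each as a protein-coding gene. GENCODE places genes of the opposite strand over parts of Ptgs1 (Gm43621), Ptger2 (Gm49364 and Gm17173) and Tbxas1 (Gm42962 and 1700025N23Rik). The sources used here do not say if counting used strand, and if it did not, their reads are counted together; 1700025N23Rik held 0 to 2 counts per library. Ptgs2, Ptges, Alox5 and Alox15 had no such overlap.

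Per kilobase of exon the order of the genes changed with LPS. In vehicle Tbxas1 (135 ± 5.33 CPM per kilobase; SD, n = 2) was highest, followed by Ptgs1 (91.9 ± 0.656), Alox5 (7.44 ± 2.65), Ptger2 (4.27 ± 0.755), Ptges (3.88 ± 0.201), Alox15 (3.05 ± 0.185) and Ptgs2 (1.33 ± 0.101). The libraries of Ptger2 and Ptges overlapped there, and all other neighbours in this order were separated. With LPS Ptges was first, at 234 ± 11.9 CPM per kilobase. Ptgs2 (57.9 ± 1.8), Tbxas1 (54.7 ± 3.99) and Ptgs1 (52.7 ± 0.623) followed close together, and Tbxas1 overlapped both of its neighbours. Alox15 (3.11 ± 0.0112), Ptger2 (2.26 ± 0.00273) and Alox5 (1.97 ± 0.063) came last and apart from one another. With SGA360+LPS, Ptges (218 ± 9.16), Tbxas1 (60.2 ± 1.18), Ptgs1 (50.1 ± 3.15) and Ptgs2 (29.5 ± 1.27 CPM per kilobase) were separated from one another in this order, and Ptger2 (3.05 ± 0.266), Alox15 (2.31 ± 0.585) and Alox5 (1.8 ± 0.0411) followed, also separated.

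Ratios within a library show the same exchange. Ptgs2 over Ptgs1, per kilobase, was 0.0152 and 0.0137 in the vehicle libraries, 1.06 and 1.13 with LPS, and 0.635 and 0.547 with SGA360+LPS. The COX-2 transcript thus passed the COX-1 transcript in both LPS libraries and was below it in both SGA360+LPS libraries. Without division by length the mean ratio with LPS was 1.71, a shift of over 1.5 times. Ptges over Tbxas1, the synthases that share prostaglandin H2, went from 0.027 and 0.0307 in vehicle to 4.34 and 4.21 with LPS and 3.57 and 3.68 with SGA360+LPS. Ptges over Ptgs2 was 2.67 and 3.2 in vehicle, 3.98 and 4.09 with LPS, and 6.97 and 7.86 with SGA360+LPS, highest in the group with SGA360. With 2 libraries a group an exact permutation test of such a ratio cannot reach the 0.05 threshold, so these are descriptions.

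**Figure D2:**
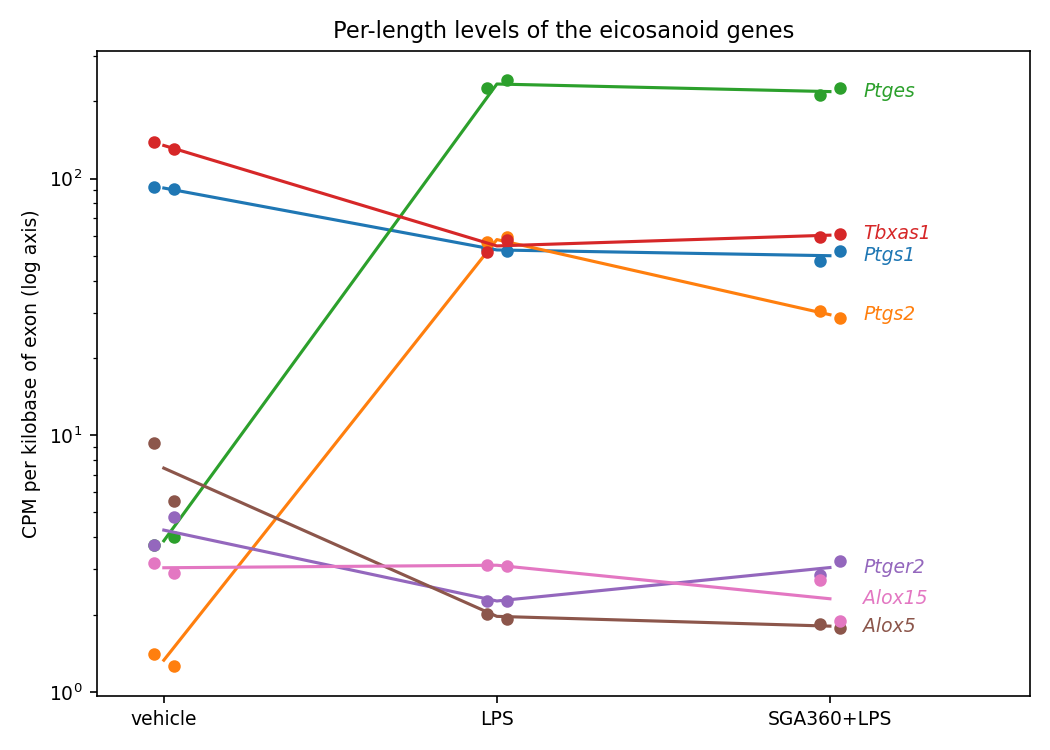
CPM per kilobase of exon on a log axis for the 7 tested genes in the 3 groups; points are single libraries and lines join group means. Ptges goes from 3.88 in vehicle to 234 with LPS, Ptgs2 meets Ptgs1 and Tbxas1 in the LPS group and lies below both with SGA360+LPS, and the lines of Alox5, Ptger2 and Alox15 stay under 10.

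The comparison of SGA360+LPS with LPS asks what the AHR ligand changed under the endotoxin. Ptgs2 was the 1 gene of the 7 tested that was called, where 0.0746% of all genes tested were called, all of them lower. Its level fell from 259 ± 8.03 to 132 ± 5.69 CPM (SD, n = 2), by 0.97 on the log2 scale (SE 0.08; 95% interval −1.15 to −0.80; adjusted p = 0.00223, edgeR). By p-value it ranked 1 among the 9389 genes tested. Of the LPS-induced rise in Ptgs2, 252.7 CPM, SGA360+LPS lacked 50.2%. In the fit of these 2 groups alone, in which 0.132% of genes were called, its log2 fold change was also −0.97 (SE 0.07; adjusted p = 4.17e-06). In the fit of 3 groups the call did not hold without LPS replicate 2 (adjusted p = 0.1), SGA360+LPS replicate 1 (adjusted p = 0.0923) or SGA360+LPS replicate 2 (adjusted p = 0.187), fits in which no gene of the table was called, while the log2 fold change stayed from −1.01 to −0.93.

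Ptges, which acts after Ptgs2, had a log2 fold change of −0.10 (95% interval −0.25 to 0.05; adjusted p = 1, edgeR) and lacked 6.68% of its LPS-induced rise. Its interval and that of Ptgs2 do not meet, but the difference between the genes was not tested. The intervals were −0.24 to 0.09 for Ptgs1 and −0.05 to 0.32 for Tbxas1 on the log2 scale. Ptger2 was at 0.43 (−0.05 to 0.91), Alox5 at −0.13 (−0.81 to 0.56) and Alox15 at −0.44 (−1.07 to 0.20); at their low counts these intervals are wide, and a lack of call does not show that the levels were alike. At an unadjusted p under 0.05, Ptgs2 was again the 1 member that passed, where 276 of all 9389 genes did. The SGA360+LPS libraries did not overlap the LPS libraries for 6 of the 7 genes, the exception being Ptgs1, against 39.5% of all genes tested. Ptger2 and Tbxas1 were the higher ones and Ptgs2, Ptges, Alox5 and Alox15 the lower ones.

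**Figure D3:**
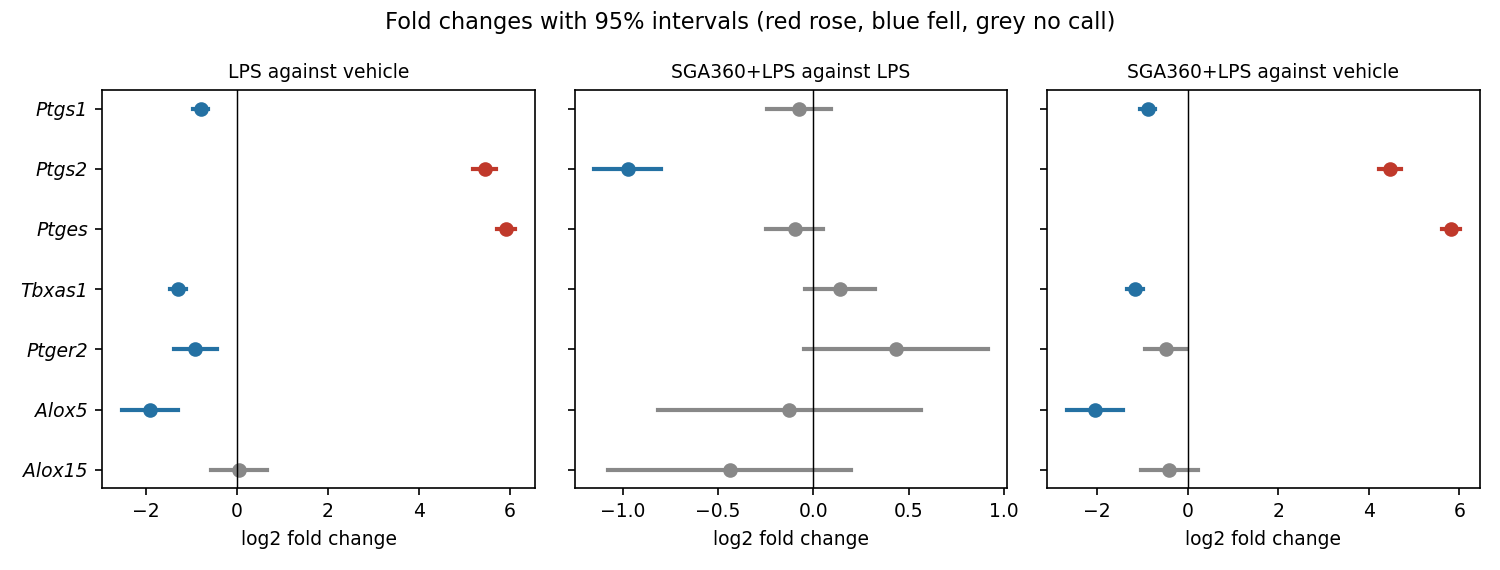
Log2 fold changes (horizontal axes, with their own range in each panel) of the 7 tested genes in the 3 comparisons; points are edgeR estimates and bars 95% intervals, red for genes that rose, blue for genes that fell and grey for no call. In the middle panel the bar of Ptgs2, from −1.15 to −0.80, is the 1 coloured bar.

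Against vehicle, the SGA360+LPS group still held Ptgs2 22.2-fold higher (log2 fold change 4.47, SE 0.11) and Ptges 56.2-fold higher (5.81, SE 0.09). Ptgs1 (−0.88, SE 0.07), Tbxas1 (−1.16, SE 0.08) and Alox5 (−2.04, SE 0.28) fell. The adjusted p of these 5 ran from 8.06e-11 for Ptges to 0.000296 for Alox5 in edgeR. Ptger2 was at −0.48 (SE 0.20; adjusted p = 0.0964) and passed without vehicle replicate 1 (−0.63; adjusted p = 0.00891). Alox15 was at −0.41 (SE 0.28; adjusted p = 0.312). Thus 2 rose, 3 fell and 2 had no call, where 17.9% of all genes tested rose and 15.2% fell (33.1% called). The groups were separated for 7 of the 7 genes, against 64.9% of all genes tested. This comparison shares its libraries with the other comparisons and is not independent of them.

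Other genes of the pathway were taken from 8 lists of 93 symbols, of which 89 are in the table and 48 could be tested. Of 30 symbols with several transcript rows 4 were tested, against 44 of 59 with 1 row. The counts per list thus cover mainly genes with 1 row. With LPS 13 of the 48 rose, 12 fell and 23 had no call, where 19.4% of all genes tested rose and 17% fell. The counts per list below stand against the same shares. The 48 had a median log2 fold change of 0.11 against −0.01 for all genes tested. Without 1 library at a time the count of 25 called genes ran from 18 without LPS replicate 2 to 36 without vehicle replicate 2, and none of the 25 changed sign. Among arachidonate release and re-acylation genes 3 of 12 rose and 4 fell. Lpcat2, a lysophospholipid acyltransferase, went from 56.1 ± 9.21 to 244 ± 1.76 CPM (SD, n = 2), and the acyl-CoA synthetase Acsl5 rose by 0.91 and Plaa by 0.39 on the log2 scale. Daglb, a diacylglycerol lipase, went from 202 ± 5.97 to 32.5 ± 0.508 CPM (log2 fold change −2.63, SE 0.10), and the lysosomal phospholipase Pla2g15 fell by 1.88, Dagla by 0.55 and Anxa1 by 0.19. Mboat7, a lysophosphatidylinositol acyltransferase, passed in SGA360+LPS against vehicle (0.26, SE 0.09; adjusted p = 0.0434, edgeR). The cytosolic phospholipase gene Pla2g4a has 2 rows and held 4 to 20 counts per library, with no call.

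Among the other prostanoid synthases 1 of 7 rose and 3 fell. Hpgds, the haematopoietic prostaglandin D synthase, dropped from 139.6 ± 18.2 to 25.8 ± 1.7 CPM between vehicle and LPS, and stood at 21.2 ± 2.67 CPM with SGA360+LPS. Its log2 fold change with LPS was −2.44 (SE 0.13; adjusted p = 2.89e-07, edgeR). Ptges over Hpgds per kilobase went from 0.081 and 0.105 in vehicle to 27.6 and 32.5 with LPS. Mast cells can also hold Hpgds; their summed markers are given above, and their part was not tested. Ptges3, a cytosolic prostaglandin E synthase that is also a chaperone, rose by 0.51, while the carbonyl reductase Cbr1 (−0.70) and the prostamide/prostaglandin F synthase gene Fam213b (−0.47) fell. Ptges2, another prostaglandin E synthase gene, was at 0.32 with no call and rose by 0.39 in SGA360+LPS against vehicle. Ptgis, which makes prostacyclin, stood at 300.4 ± 16.9, 318 ± 6.03 and 328 ± 8.11 CPM in vehicle, LPS and SGA360+LPS, with no call (log2 fold change with LPS 0.08, SE 0.07). Under LPS the genes for the prostaglandin E2 synthases Ptges and Ptges3 were thus higher, and those for thromboxane A2 (Tbxas1) and prostaglandin D2 (Hpgds) lower. Fibroblasts are also known for Ptgis. Of their 7 markers 6 had counts, and Pdgfrb, which has 2 transcript rows, was at 0. The sum was 4679.8 to 5379 CPM in vehicle, 4418 to 4725 CPM with LPS and 4737 to 5208 CPM with SGA360+LPS. In the vehicle libraries Col1a1 was at 1735 and 2172 CPM, Col1a2 at 2067 and 2295 CPM and Col3a1 at 856 and 898 CPM. Dcn was at 10.4 and 3.33 CPM, Lum at 11.7 and 11.1 CPM and Pdgfra at 0 and 0.624 CPM. Dcn and Pdgfra have 2 transcript rows each. Of 5 markers tested 1, Col3a1, fell with LPS (−0.41 on the log2 scale). The part of fibroblasts was not tested.

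Among the other prostanoid receptors 1 of 4 rose and 1 fell with LPS. The prostacyclin receptor gene Ptgir went from 61.5 ± 0.406 to 117 ± 0.933 CPM (0.92, SE 0.08), and Ptger1, the EP1 gene, from 88.0 ± 6.54 to 59.5 ± 1.54 CPM (−0.56, SE 0.10). Ptger3, the EP3 gene, stood at 0.34 (SE 0.24) with no call. Ptgfr, the prostaglandin F receptor gene, with 0 to 15 counts per library, was called in SGA360+LPS against vehicle (3.32, SE 1.04; adjusted p = 0.0332, edgeR). The 4 tested genes of transport and breakdown had no call with LPS in edgeR, among them Zadh2, a prostaglandin reductase gene, at 0.33 (SE 0.13). Slco2a1, a prostaglandin uptake carrier, passed in SGA360+LPS against vehicle (0.50, SE 0.14; adjusted p = 0.0216, edgeR) and was at 0.24 in LPS against vehicle; between SGA360+LPS and LPS it had no call (0.26, SE 0.14; adjusted p = 1, edgeR).

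Among the other leukotriene genes 1 of 7 rose and 3 fell with LPS. Abcc1, the exporter of leukotriene C4, went from 129.8 ± 17.3 to 531 ± 31.9 CPM (2.03, SE 0.10; adjusted p = 1.05e-07, edgeR). Mgst1, a microsomal glutathione transferase gene (−0.50), Cyp4f16, a cytochrome P450 gene (from 30.8 ± 9.42 to 15.4 ± 0.602 CPM), and the gamma-glutamyl transferase gene Ggt5 (from 1.84 ± 0.398 to 0.285 ± 0.215 CPM, with 1 to 19 counts per library) fell. Lta4h, whose enzyme makes leukotriene B4, has 2 rows and 0 to 2 counts per library. In the list of leukotriene and lipoxin receptors all 4 tested genes rose with LPS, but none of them is a leukotriene receptor. Fpr2, a formyl peptide and lipoxin A4 receptor gene, went from 5.25 ± 1.11 to 328 ± 55.6 CPM and Fpr1, a formyl peptide receptor gene, from 13.9 ± 2.61 to 615 ± 34.8 CPM (log2 fold changes 5.95 and 5.47). Cmklr1, the chemerin receptor gene, rose by 1.32 and Gpr18 by 2.73. The leukotriene B4 receptor gene Ltb4r1 held 3 to 13 counts per library and was not tested. Gpx1, a glutathione peroxidase that reduces hydroperoxides, fell from 864 ± 4.86 to 579 ± 5.33 CPM; it was the 1 tested gene of 9 in the lipoxygenase and epoxide list.

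In the list of cyclic AMP signalling downstream of EP2 and EP4, 3 of 9 tested genes rose with LPS and none fell. Crtc2, a coactivator of CREB, rose from 59.7 ± 1.87 to 94.4 ± 1.25 CPM (0.66, SE 0.09). Nr4a3, a nuclear receptor gene (2.93, SE 0.76), and the phosphodiesterase gene Pde4b (3.64, SE 1.02) rose from at most 15 counts per vehicle library; both have several transcript rows and are uncertain.

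In SGA360+LPS against LPS, 0 of the 48 genes were called by edgeR, and 0 by DESeq2 or limma-voom; their median log2 fold change was 0.0031 against 0.0012 for all genes tested. At an unadjusted p under 0.05 there were 5, Cbr3, Fpr1, Lpcat2, Pla2g15 and Ptges3, against 276 of all 9389 genes. Lpcat2 was at 244 ± 1.76 and 209.9 ± 2.67 CPM in LPS and SGA360+LPS (−0.22, SE 0.09) and Ptges3 at 271 ± 20.8 and 237 ± 0.805 CPM (−0.19, SE 0.08). Against vehicle 16 of the 48 rose and 11 fell with SGA360+LPS, where 17.9% of all genes tested rose and 15.2% fell; this count of 27 was 14 and 15 without SGA360+LPS replicate 2 and 1.

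**Figure D4:**
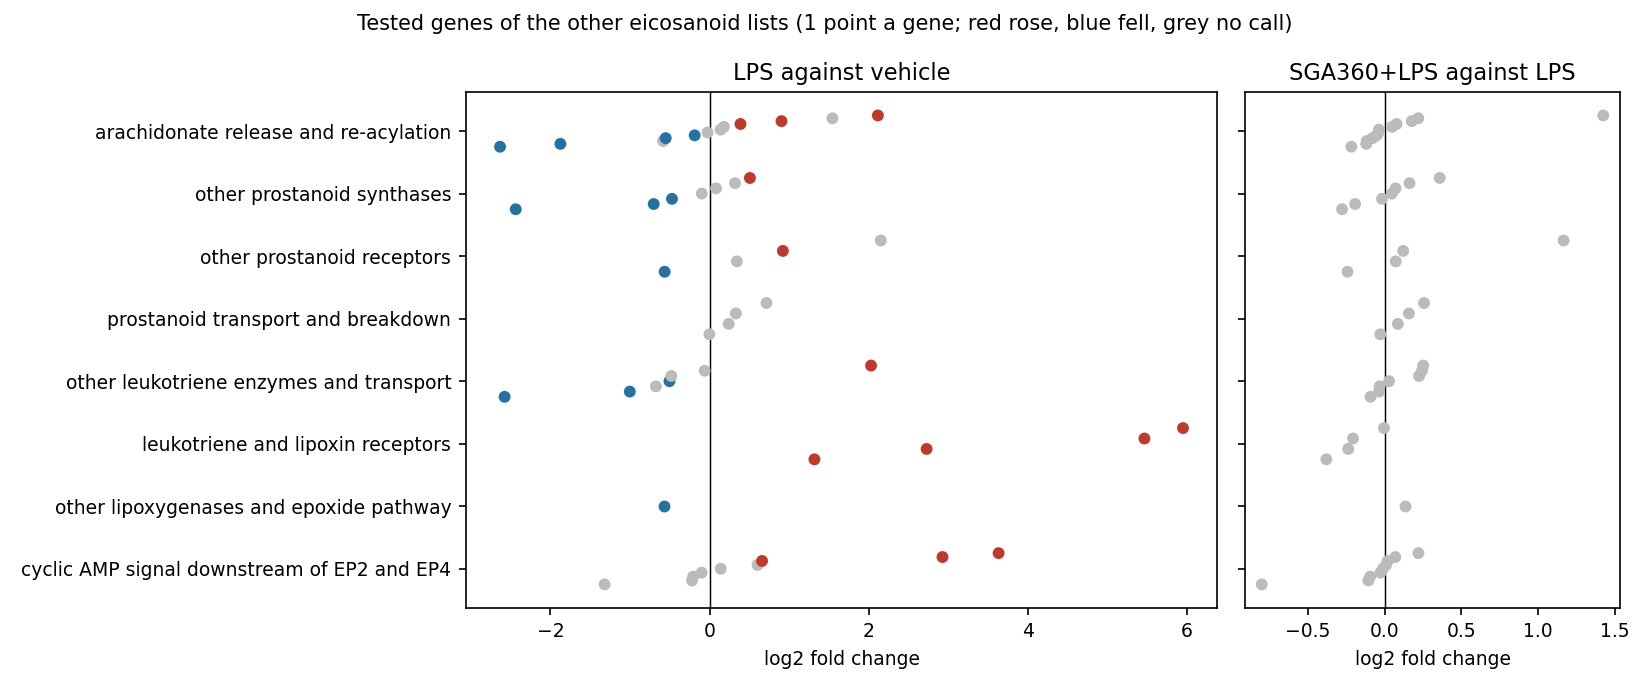
Log2 fold change of the 48 tested genes of the 8 pathway lists in LPS against vehicle (left) and SGA360+LPS against LPS (right); 1 point is a gene, red where it rose, blue where it fell and grey without a call, and the height within a list only separates points. On the left 13 points are red and 12 blue, led by Fpr2 and Fpr1; on the right none is coloured.

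The genes whose pattern over the 6 libraries was most like that of each member were sought among up to 6963 genes, by the root mean square difference of centred log2 CPM. For Ptgs2 these were the cytokine gene Il1a (0.115), the chemokine gene Ccl3 (0.267), Tmem132e (0.269), the chemokine gene Cxcl1 (0.287) and the receptor gene Gpr84 (0.312). Il1a, the nearest, was at 19.5 ± 4.56, 757 ± 52.8 and 404 ± 10.3 CPM in vehicle, LPS and SGA360+LPS. From LPS to SGA360+LPS it fell by 0.90 on the log2 scale (SE 0.10, adjusted p = 0.00961, edgeR), against 0.97 for Ptgs2. Cxcl1 was also called lower (−0.67), while Ccl3 (−0.58), Tmem132e (−0.67) and Gpr84 (−0.23) had no call. All genes of this paragraph were picked by their likeness to a member in these same libraries, so alike changes follow from the choice. Tmem132e had no vehicle count, so its distance depends on the prior count of 2 used in the log values. The nearest to Ptges were the cytokine subunit gene Il27 (0.1) and the lectin receptor gene Clec4e (0.125), at −0.15 (SE 0.15) and −0.18 (SE 0.12) in SGA360+LPS against LPS with no call. Those nearest to Tbxas1 were Wdfy4 (0.0365) and Atp6v0d2 (0.0439), to Ptgs1 Calhm2 (0.0461) and Bnc1 (0.0462), to Ptger2 Fbxo10 (0.0914) and Tecpr1 (0.0936), and to Alox5 Pdk2 (0.108) and Cd244 (0.162).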

How the data were processed

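The authors deposited whole-number read counts per RefSeq transcript row (34751 rows) for 6 libraries, with the exon length of each row. TopHat2 2.0.13, HTSeq 0.5.4p3 and the build mm10 are named, per the submitters' processing notes; the sources used here give neither the strand setting nor the treatment of reads shared by transcripts. Counts were summed per symbol (24454). The exon length in the deposited table served for CPM per kilobase. After filterByExpr (minimum count 10) and TMM scaling, the quasi-likelihood test of edgeR 4.0.16 was fitted to all 6 libraries and 3 groups at once (3 residual degrees of freedom; R 4.3.3), with Benjamini-Hochberg adjustment over all genes and a threshold of 0.05. SE is the absolute log2 fold change over the square root of F, and 95% intervals use the moderated degrees of freedom. The test was checked on counts simulated with the same spread for all genes and libraries, which does not cover the larger spread of the vehicle pair. Alternatives used DESeq2 1.42.0, limma 3.58.1, other filters and left-out libraries.

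The members and lists were chosen with earlier results of these data known. Named are all members, list genes called in any comparison (mean over the 6 libraries 1 CPM or more), and the nearest genes (5 CPM or more). Pla2g4a, Lta4h, Ltb4r1, Cbr3, Ptgis, Ptger3, Zadh2, Ggt5 and Ptgfr (the last pair called but below that mean) and the single markers were named after their values were seen. No replicate pair agreed within sampling noise (mean chi-square per gene 44.2, 6.17 and 4.14). The limit given for a count of 0 covers counting error alone: without molecular identifiers, PCR copies are not separate molecules.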

Additional observations from a re-analysis of the deposited data

How the results depend on the processing

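The member counts with LPS (6) and with SGA360+LPS against vehicle (5) were 5 to 6 each without 1 library at a time, and 6 and 5 under every other alternative run. For SGA360+LPS against LPS the count of 1 ran from 0 to 1 without 1 library and was 1 otherwise. In fits that leave a group with 1 library, that library is assumed to vary like the others. The counts over all genes moved more. For LPS against vehicle the 3413 genes ran from 2091 to 5494 without 1 library, and for SGA360+LPS against vehicle the 3107 from 1831 to 5315. For SGA360+LPS against LPS the 7 genes were 11 with DESeq2, 17 with no filter, 12 in these 2 groups alone and 0 to 16 without 1 library (15 and 16 without a vehicle library, 0 to 3 without an LPS or SGA360+LPS library); the cause was not tested. Alox15 in LPS against vehicle ranged from −0.0111 to 0.112 without 1 library, with the value −0.0111 without vehicle replicate 2, the 1 sign change among the members. Without division by exon length Ptgs2 over Ptgs1 was 0.0225, 1.71 and 0.918 in vehicle, LPS and SGA360+LPS. The replicate block (replicate number as a covariate) gave 3434, 5 and 3136 genes in the 3 comparisons and the same members. The deviations of same-numbered libraries correlated at −0.01 (vehicle and LPS), 0.01 (vehicle and SGA360+LPS) and 0.16 (LPS and SGA360+LPS), not all above 0.1, so the numbers were not taken as pairs. The share of Rn45s was higher in replicate 1 than in replicate 2 of each group, and a shared batch was not tested; with the block Ptgs2 in SGA360+LPS against LPS was at −0.97 (adjusted p = 0.00874, edgeR). Depth limits Ptger2, Alox5 and Alox15, with 41 to 237 counts per library.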
